A study of Rattus norvegicus with 6 samples.

Results

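The miR-29 family of microRNAs (miRNAs) was examined in rat primary skeletal muscle cells (RSkMC) with and without interleukin-8 (IL-8), an inflammatory chemokine best known for recruiting neutrophils. Its members were all miRNA entries of the array whose systematic name is an arm of miR-29a, miR-29b or miR-29c, with spots of control probes left out. They numbered 7 of the 719 rat miRNAs on the array: the arms rno-miR-29a-3p, rno-miR-29b-3p and rno-miR-29c-3p, and 4 arms from the opposite strand of the hairpins. The 3p arms were 3 of the 167 miRNAs bright enough to be tested.

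The cells were bought from a cell collection (ECACC) and came from limb muscle of neonates, frozen at an early passage. They were grown in 10% fetal bovine serum and then held in medium with 2% horse serum, which starts myogenic differentiation, until day 11. Control samples (n = 3) received no agent, and IL-8 samples (n = 3) received recombinant IL-8 at 1 ng/ml during those days. Both groups thus carried the same serum and the same time in culture, and 100 ng of total RNA from each sample was labelled with Cy3 and hybridised to its own 1-colour Agilent array. All 3 control arrays shared 1 slide and all 3 IL-8 arrays shared the other, so effects of slide and of treatment cannot be told apart. The labels do not say whether samples of a group were separate cultures, so the p-values here reflect the spread among 3 samples of unstated origin, and that spread may be technical.

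The labelled cell type was set against marker miRNAs. None of the 7 muscle-enriched miRNAs listed, among them miR-1-3p, miR-133a-3p and miR-206-3p, was well above background on any array. All 6 markers of fibroblasts and smooth muscle were well above background on all arrays. Their summed scaled level ran from 44.3 to 52.9 in control and from 45.7 to 49.4 in IL-8 samples, and none of the 6 passed the test. All 6 are also on the list of miRNAs described to promote fibrosis, read below. One of them, miR-214-3p, is on the list of myoblast differentiation as well, so it does not mark fibroblasts alone. Of the markers of other cells, 0 of 6 for blood and serum, 0 of 2 for endothelium, 0 of 6 for epithelium and 1 of 3 for neural cells (miR-128-3p) were well above background on any array. In such bulk samples fewer cells of a type and less RNA per cell cannot be told apart, and the part of cell composition in the results was not tested.

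A mature miRNA guides the silencing complex to messenger RNAs that pair with its seed, bases 2 to 8 from the 5′ end. The miR-29 family is known for repressing messenger RNAs of extracellular matrix proteins, among them fibrillar collagens, elastin and fibrillin, and it is lowered by TGF-β signalling in fibroblasts. In muscle it is also known to promote myoblast differentiation, and NF-κB acting with the repressor YY1 is known to silence it in myoblasts. The 3p arms are the strands known to act in the silencing complex. Their sequences are shown because they share a seed and differ only outside it, which also sets how well probes can separate them. Sequences are those of the RefSeq table of the GRCr8 assembly, 5′ to 3′, with the seed in capitals.
rno-miR-29a-3p: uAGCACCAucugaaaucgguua
rno-miR-29b-3p: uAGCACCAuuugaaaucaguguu
rno-miR-29c-3p: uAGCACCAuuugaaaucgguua

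Of the 719 rat miRNAs on the array, 651 matched a mature sequence by name, and exactly 3 of those carried the seed AGCACCA. These were the 3p members themselves, and the count was also 3 when only bases 2 to 7 were compared. Counted from the 5′ end, rno-miR-29a-3p and rno-miR-29c-3p, both of 22 bases, differ by the single substitution C10U. rno-miR-29b-3p has 23 bases. It shares its first 17 bases with rno-miR-29c-3p and differs from it by A18G, G21U and U22A, read from miR-29b-3p to miR-29c-3p. Against rno-miR-29a-3p the changes are C10U, G18A, U21G and A22U, read from miR-29a-3p to miR-29b-3p. The end of miR-29b is known as a signal for import into the nucleus that miR-29a lacks. Total RNA does not separate compartments.

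The array design places the family in 2 clusters on the rat rn4 build. The probe region of rno-miR-29a-3p is chr4:58107816-58107834, and that of rno-miR-29b-3p is chr4:58108190-58108211, with 355 bases between them. The sequence of rno-miR-29b-3p also occurs at chr13:110967572-110967593, where 508 bases separate it from rno-miR-29c-3p at chr13:110968102-110968122. Mature miR-29b-3p from the genes Mir29b1 on chromosome 4 and Mir29b2 on chromosome 13 has the same letters, so its level here is the sum over both genes. In the RefSeq gene table of GRCr8, used for neighbours only, Mir29b2 and Mir29c both overlap the long noncoding RNA gene LOC102550527. Mir29a overlaps the miRNA gene Mir3556a, Mir29b1 overlaps Mir3587, and Mir29c overlaps Mir3556b. The array held 2 probes each for rno-miR-3556a, rno-miR-3587 and rno-miR-3556b, and none of these was well above background on any array; their highest signals were -1.37, 0.309 and 0.213 intensity units.

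Each 3p member was measured by 2 probes, with 10 spots per probe and array. The probes are DNA strands complementary to the miRNA, and capitals mark the bases opposite positions at which the 3 members differ, where cross-hybridisation would have to be told apart.
miR-29a-3p, 19 bases: TAacCgatttcaGatggtg
miR-29a-3p, 20 bases: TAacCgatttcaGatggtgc
miR-29b-3p, 21 bases: AACacTgatttcaAatggtgc
miR-29b-3p, 22 bases: AACacTgatttcaAatggtgct
miR-29c-3p, 21 bases: TAacCgatttcaAatggtgct
miR-29c-3p, 22 bases: TAacCgatttcaAatggtgcta

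The shorter probe of each pair lies within the longer one, so the probes of a member are not independent measurements. No probe matched another member in full. The miR-29a-3p probes had 1 mismatch with miR-29c-3p and 4 with miR-29b-3p, and the miR-29c-3p probes had 1 mismatch with miR-29a-3p and 3 with miR-29b-3p. The miR-29b-3p probes had 5 mismatches with miR-29a-3p and 4 with miR-29c-3p. How much miR-29a-3p binds the miR-29c-3p probes across that 1 mismatch was not tested.

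Before any scaling between arrays, every 3p probe gave its lowest signal on the first control array and its highest on the third IL-8 array. The 20-base probe of rno-miR-29a-3p read 1392, 1738 and 1774 intensity units in control samples 1, 2 and 3, and 1835, 1968 and 2040 in IL-8 samples 1, 2 and 3. The 21-base probe of rno-miR-29b-3p read 474, 673 and 787 in control and 817, 884 and 900 in IL-8 samples. For the 21-base probe of rno-miR-29c-3p the signals were 134, 170 and 178 in control and 192, 198 and 205 in IL-8 samples. The groups did not overlap for any of these probes. All 3 members behaved alike when the log2 signals of their probes were averaged, and no control sample reached the lowest IL-8 sample. Without scaling, the groups did not overlap, in either direction, for 107 of the 167 tested miRNAs (64.1%). How many of these were higher with IL-8 was not counted. At their bright probes the IL-8 arrays gave more signal: over the 264 probes that every array measured well above background, the 75th percentile of signal was 440.1, 475.1 and 496.8 intensity units in control samples and 568.9, 549.1 and 539.7 in IL-8 samples. No miRNA spot was saturated. With outlier spots left out, the spots of a 3p probe on 1 array had a coefficient of variation between 2.01% and 9.04%. The lowest value was that of the 20-base miR-29a-3p probe in control sample 2, where 2 of 10 spots were left out.

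**Figure D1:**
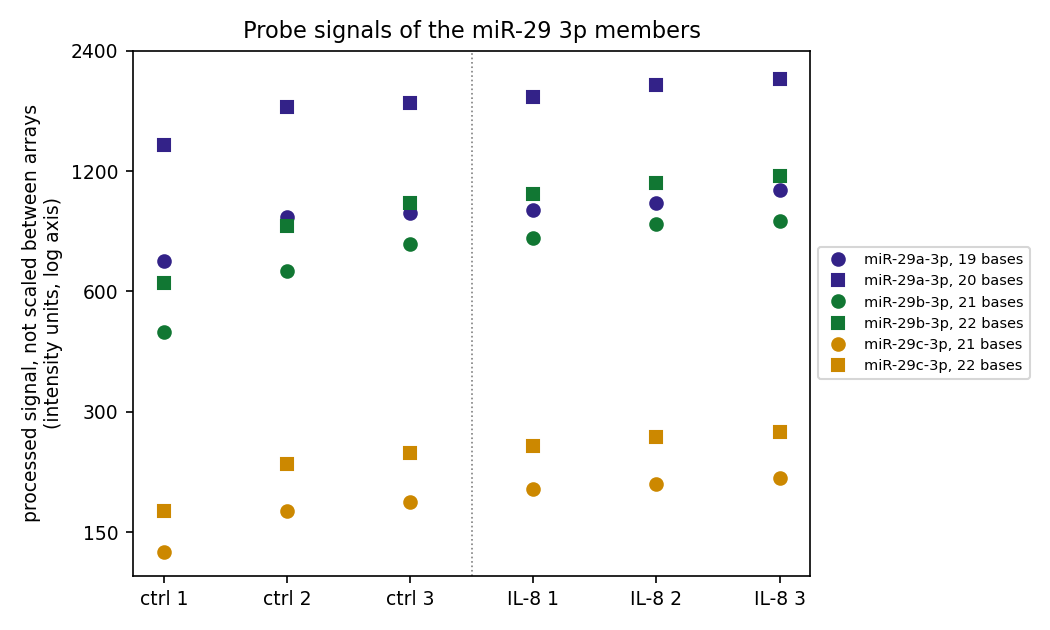
Processed signal of the 6 probes of the miR-29 3p arms (intensity units, log axis, not scaled between arrays) on the 3 control and 3 IL-8 arrays; each point is the mean of a probe's spots on 1 array, and the colour and shape give the member and probe length. For every probe the IL-8 arrays lie above the control arrays, from 1835 to 2040 against 1392 to 1774 for the 20-base miR-29a-3p probe; levels of different probes are not comparable.

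The longer and the shorter probe of a member kept a nearly fixed ratio from array to array. The longer probe was 1.88 to 1.97 times as bright for rno-miR-29a-3p, 1.27 to 1.33 times for rno-miR-29b-3p and 1.26 to 1.33 times for rno-miR-29c-3p. Both probes of a member therefore tracked the same differences between samples.

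With each array scaled to its own 75th percentile, none of the 3 members differed between IL-8 and control samples by limma over all 167 tested miRNAs. All 3 means were slightly higher with IL-8, and for all 3 the samples of the groups overlapped. Among all tested miRNAs, 12 (7.19%) had an adjusted p under 0.05, 6 higher and 6 lower. For 50 of the 167 (29.9%) the ranges of the groups were separate. Of the members, 0 of 3 passed the adjusted threshold, 0 of 3 had an unadjusted p under 0.05 (42 of 167 did) and 0 of 3 had groups that did not overlap. The median change of the members was 0.082 on the log2 scale, beside 0.019 over all tested miRNAs, of which 96 were higher and 71 lower. The values that follow are log2 levels relative to the 75th percentile of the same array, so a change in which all miRNAs took part would not show.

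The scaled log2 level of rno-miR-29a-3p was 1.18, 1.41 and 1.38 in control samples 1, 2 and 3, and 1.22, 1.35 and 1.46 in IL-8 samples 1, 2 and 3. The first sample of each group was the lowest of its group, 2 of the IL-8 samples lay within the control range, and the third lay above it. Means were 1.32 ± 0.13 (SD, n = 3) in control and 1.34 ± 0.12 (SD, n = 3) in IL-8 samples. The change was 0.021 ± 0.088 (SE), a 1.01-fold level with a 95% confidence interval of 0.881 to 1.17, and its limma adjusted p was 0.925. The interval holds differences of either sign. The sign itself was not fixed: it was negative without control sample 1 (-0.051) and without IL-8 sample 3 (-0.036).

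The scaled log2 level of rno-miR-29b-3p was 0.31, 0.69 and 0.84 in control samples, and 0.70, 0.86 and 0.92 in IL-8 samples. Control sample 1 stood well below the other samples, while control sample 3 lay above IL-8 sample 1. Means were 0.61 ± 0.27 (SD, n = 3) in control and 0.83 ± 0.11 (SD, n = 3) in IL-8 samples. Of the 3 members this one had the largest change, 0.22 ± 0.13 (SE) on the log2 scale or 1.16-fold, with a 95% interval of 0.937 to 1.44 and a limma adjusted p of 0.378. Its p ranked 64 among the 167. The change was 0.065 without control sample 1 and 0.33 without control sample 3, where the limma adjusted p was 0.0542; over all alternatives it ran from 0.0385 to 0.998.

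The scaled log2 level of rno-miR-29c-3p was -1.55, -1.29 and -1.27 in control samples, and -1.39, -1.28 and -1.20 in IL-8 samples. Again control sample 1 was the lowest, and 2 control samples lay within the IL-8 range. Means were -1.37 ± 0.15 (SD, n = 3) in control and -1.29 ± 0.09 (SD, n = 3) in IL-8 samples. The change was 0.082 ± 0.090 (SE), or 1.06-fold with a 95% interval of 0.915 to 1.22, and its limma adjusted p was 0.656. Without control sample 1 it was -0.0065.

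**Figure D2:**
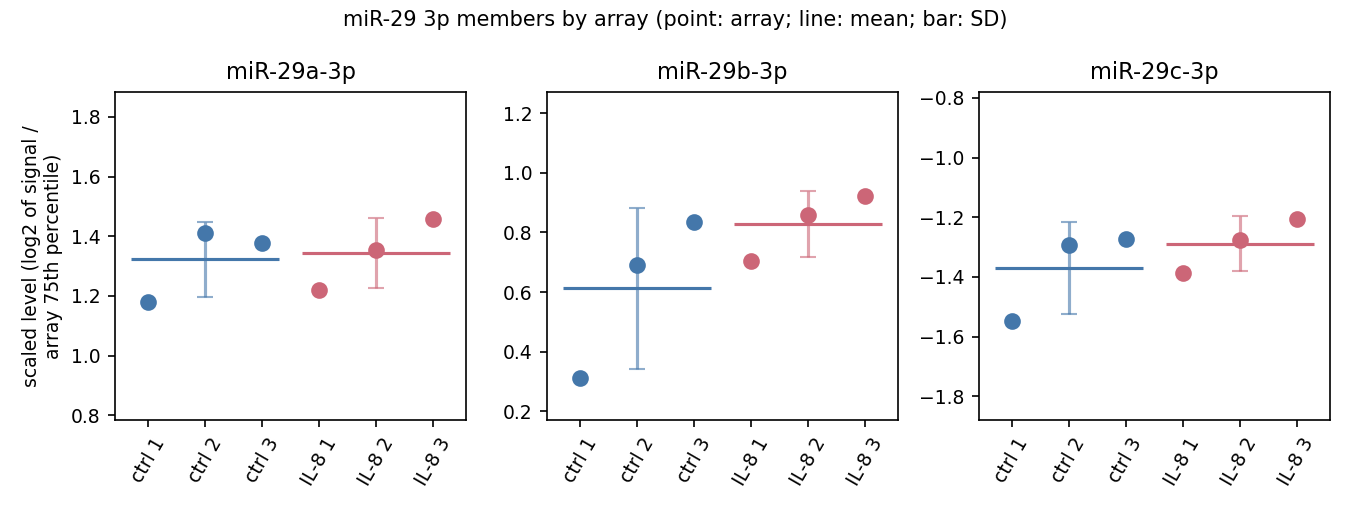
Scaled log2 level of rno-miR-29a-3p, rno-miR-29b-3p and rno-miR-29c-3p (log2 of signal over the array's 75th percentile) in the 3 control (blue) and 3 IL-8 (red) samples; points are arrays, horizontal lines group means and bars 1 SD. The groups overlap in each panel, and control sample 1 is the lowest of 6 for all 3 members, at 1.18, 0.31 and -1.55.

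The probes of each member gave like changes. They were 0.015 and 0.027 for the 19-base and 20-base probes of rno-miR-29a-3p, and 0.22 and 0.21 for the 21-base and 22-base probes of rno-miR-29b-3p. Both probes of rno-miR-29c-3p gave 0.082. The order of the members by change was therefore the same whichever probe was read.

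**Figure D3:**
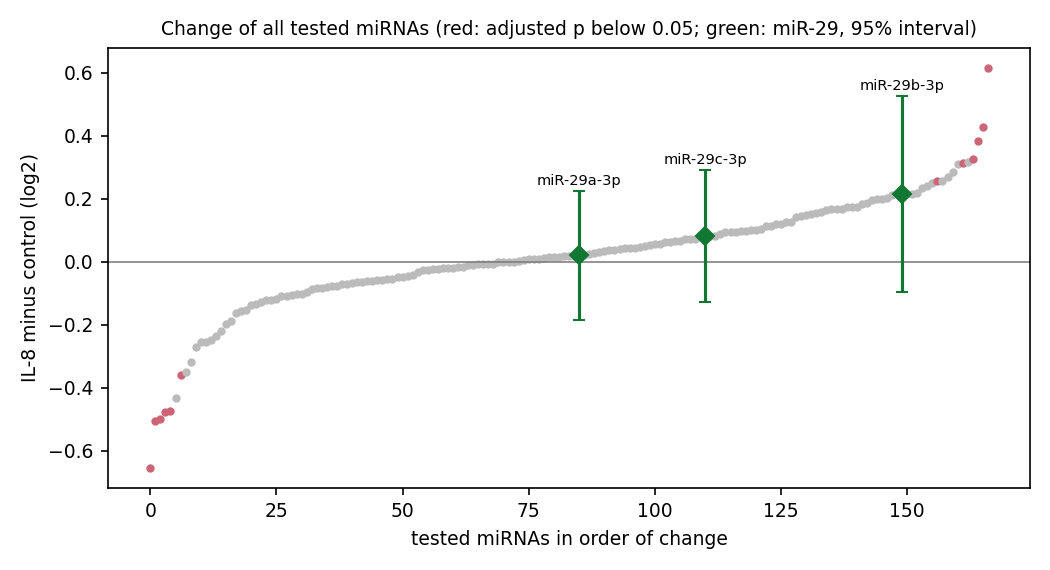
Change from control to IL-8 (log2, scaled levels) of the 167 tested miRNAs in order of size; red points have a limma adjusted p under 0.05, and green diamonds with bars are the miR-29 3p members with their 95% intervals. The members sit at 0.021, 0.082 and 0.22 within a range of -0.65 to 0.62, and each interval includes 0.

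Scaling decided whether rno-miR-29b-3p passed the threshold. With no scaling between arrays its change was 0.45 (adjusted p = 0.0437 by limma), and with scaling by 27 spike-in probes it was 0.41 (adjusted p = 0.0385 by limma). In those fits the median over all tested miRNAs was itself 0.25 and 0.21, and 52 (31.1%) and 51 (30.5%) of the 167 passed. These scalings move all miRNAs of an array by the same amount, floor aside, so a member's distance from that median is fixed by construction. rno-miR-29a-3p changed by 0.25 without scaling and 0.21 with spike-ins (limma adjusted p = 0.0862 and 0.0737), and rno-miR-29c-3p by 0.31 and 0.27 (limma adjusted p = 0.0582 and 0.0522). Neither passed. With slide shared by treatment, a brighter slide and a higher total of miRNA in the sample cannot be told apart.

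**Figure D4:**
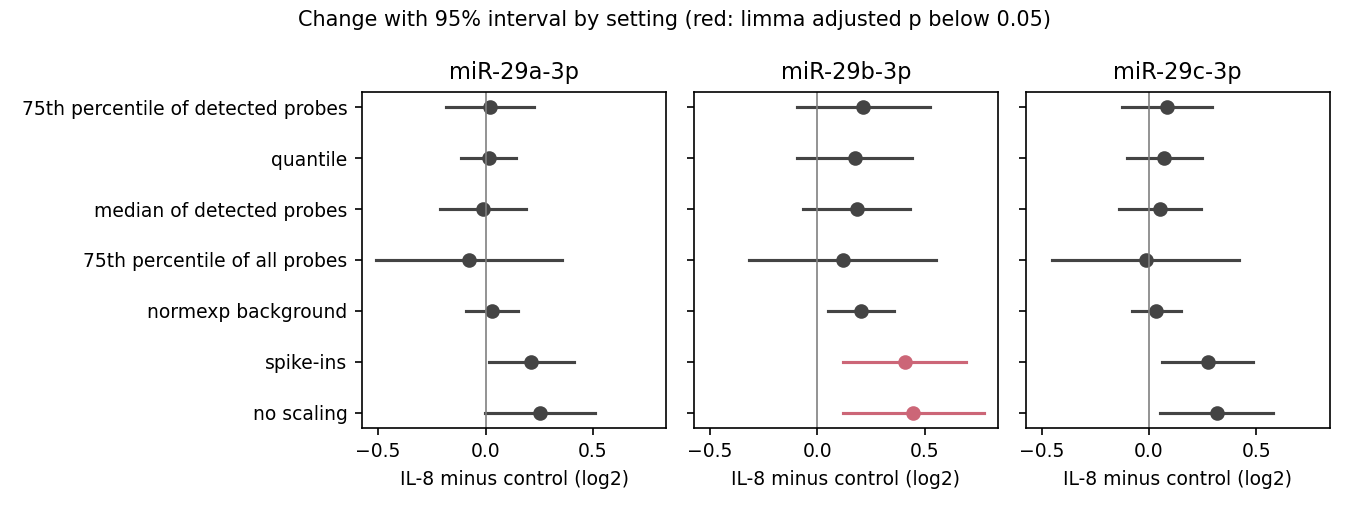
Change from control to IL-8 (log2) of each miR-29 3p member with its 95% interval under 7 settings of scaling or background correction; red marks a limma adjusted p under 0.05. rno-miR-29b-3p passes only with spike-ins (0.41) and without scaling (0.45), and in both settings the intervals move to the right for all 3 members.

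Differences between members within an array do not depend on scaling by a factor common to all miRNAs of the array. Quantile normalization and normexp can change them, and these differences were not computed under either. The size of such a difference also reflects how bright each probe is, so only its change between samples is read. rno-miR-29b-3p minus rno-miR-29a-3p was -0.87, -0.72 and -0.54 in control samples and -0.52, -0.50 and -0.53 in IL-8 samples on the log2 scale. All IL-8 samples lay above all control samples, although control sample 3, at -0.54, lay next to IL-8 sample 3, at -0.53. The means were -0.71 ± 0.16 and -0.52 ± 0.02 (SD, n = 3 each), a difference of 0.19 (p = 0.1 by an exact two-sided permutation test, the smallest p that 3 against 3 samples allow, and 0.2 adjusted over the 3 pairs). When rno-miR-29a-3p was subtracted in the same way from the 164 tested miRNAs outside the family, no overlap between groups was seen for 23 (14%). Leaving out 1 sample at a time gave differences from 0.12 to 0.28.

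The other pairs overlapped between groups. rno-miR-29c-3p minus rno-miR-29a-3p was -2.73, -2.70 and -2.65 in control and -2.61, -2.63 and -2.66 in IL-8 samples, a difference of 0.061 (exact permutation p = 0.2, adjusted 0.2). rno-miR-29c-3p minus rno-miR-29b-3p was -1.86, -1.98 and -2.11 in control and -2.09, -2.13 and -2.13 in IL-8 samples, a difference of -0.13 (exact permutation p = 0.2, adjusted 0.2). In all 3 pairs the control samples had the larger SD, 0.16 against 0.02 for miR-29b-3p minus miR-29a-3p, 0.04 against 0.03 for miR-29c-3p minus miR-29a-3p and 0.12 against 0.02 for miR-29c-3p minus miR-29b-3p. The pair of rno-miR-29a-3p and rno-miR-29c-3p, which differ by the single base C10U, had the narrowest range over the 6 arrays.

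**Figure D5:**
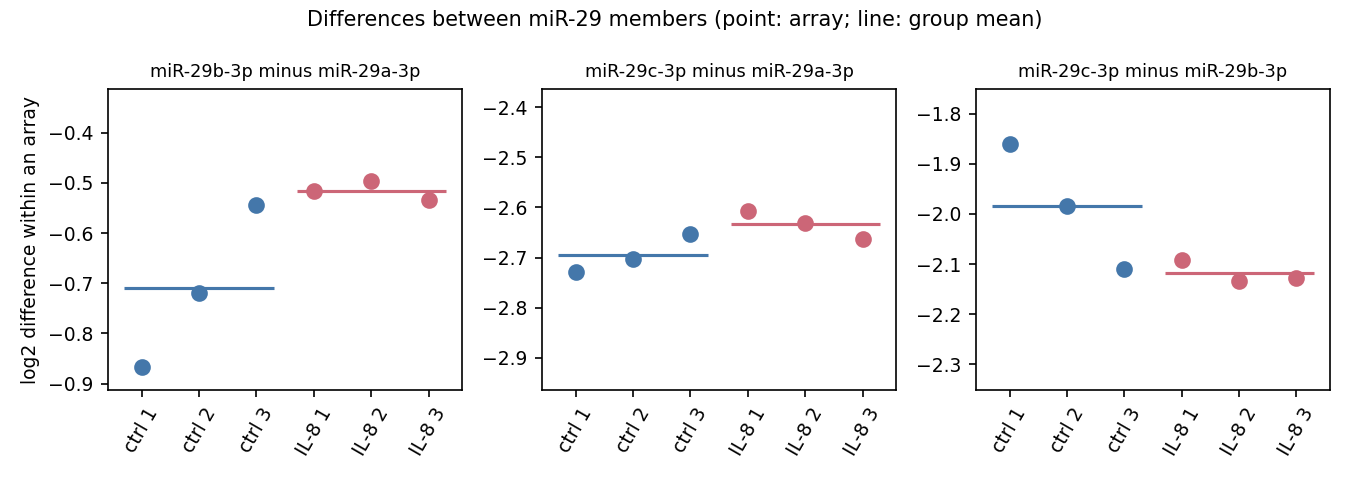
Log2 difference within an array between pairs of miR-29 3p members in control (blue) and IL-8 (red) samples; points are arrays and lines group means. miR-29b-3p minus miR-29a-3p is higher in every IL-8 sample (-0.53 to -0.50) than in every control sample (-0.87 to -0.54), while the groups overlap in the other panels.

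The members varied more within a group than most tested miRNAs. Their pooled SD within groups was 0.122 for rno-miR-29a-3p, 0.207 for rno-miR-29b-3p and 0.127 for rno-miR-29c-3p on the log2 scale, against a median of 0.0843 over all 167. Only 15 tested miRNAs had a larger SD than rno-miR-29b-3p. The spread came in part from single arrays: against the mean of the other control samples, control sample 1 was lower by 0.45 for rno-miR-29b-3p, and only 4 of the 167 tested miRNAs, itself included, deviated as far down. The same sample stood at -0.22 for rno-miR-29a-3p and -0.27 for rno-miR-29c-3p, beside a median of -0.083 over all tested miRNAs. IL-8 sample 1 was also low for all 3 members, at -0.18, -0.19 and -0.15, with a median of -0.031 over all tested miRNAs. IL-8 sample 3 was high for all 3, at 0.17, 0.14 and 0.13.

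Across the 6 arrays the members moved together. Pearson's r was 0.959 between rno-miR-29b-3p and rno-miR-29c-3p (Spearman's rho 0.886), 0.930 between rno-miR-29a-3p and rno-miR-29c-3p (rho 0.829) and 0.792 between rno-miR-29a-3p and rno-miR-29b-3p (rho 0.6). The median r over the 13861 pairs of tested miRNAs was 0.147. These values describe 6 arrays that share scaling and scanner, and probes with mismatches as few as 1, so no p is given. Of the pairs that share a cluster, miR-29b-3p with miR-29c-3p (chromosome 13) had the highest r of the 3 and miR-29a-3p with miR-29b-3p (chromosome 4) the lowest.

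Outside the family, the miRNAs most like rno-miR-29a-3p over the 6 arrays were miR-103-3p (r = 0.942), miR-100-5p (r = 0.936) and miR-324-3p (r = 0.918). For rno-miR-29b-3p they were miR-20b-5p (r = 0.984), miR-30b-5p (r = 0.976) and miR-136-5p (r = 0.955). For rno-miR-29c-3p they were miR-20b-5p (r = 0.971), miR-22-5p (r = 0.939) and miR-337-3p (r = 0.930). miR-20b-5p was thus on the lists of both miR-29b-3p and miR-29c-3p, and none of these miRNAs passed the test between groups.

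The 5p arms, the strands that are usually degraded, were close to background. Their sequences are shown because, unlike the 3p arms, each has its own seed, again in capitals.
rno-miR-29a-5p: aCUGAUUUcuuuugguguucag
rno-miR-29b-1-5p: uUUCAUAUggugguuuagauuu
rno-miR-29b-5p: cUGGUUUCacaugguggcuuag
rno-miR-29c-5p: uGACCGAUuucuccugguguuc

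rno-miR-29b-1-5p comes from Mir29b1 and rno-miR-29b-5p from Mir29b2, so these arms could separate the 2 genes if they were bright enough. The 4 arms had 14 probes, and 1 of their 84 probe values was well above background. That value was the 22-base probe of rno-miR-29a-5p in IL-8 sample 3, at 15.2 intensity units. Signals of the other arms ran from -1.45 to 5.85 for rno-miR-29b-1-5p, from -8.14 to -0.333 for rno-miR-29b-5p and from 1.47 to 7.88 for rno-miR-29c-5p. On each array, 95% of 434 negative control spots lay under a value between 7.72 and 11.1 intensity units. No 5p arm had a probe well above background in all 3 samples of either group, so none was tested and no bound is given. The probes of rno-miR-29b-5p are at most 16 bases long, against 19 or more for the 3p members.

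Other miRNAs described to restrain fibrosis were set beside the family. Of 15 on the array outside the family, 7 were tested, and 0 rose and 0 fell (limma adjusted p under 0.05, beside 12 of 167 or 7.19% over all tested miRNAs). An unadjusted p under 0.05 was seen for 2 of the 7, beside 42 of 167. Their median change was 0.13. These 2 were miR-30a-5p and miR-30c-5p, of a family known to target connective tissue growth factor. miR-30a-5p changed by 0.17 ± 0.058 (SE, limma adjusted p = 0.142) and miR-30c-5p by 0.19 ± 0.070 (SE, limma adjusted p = 0.157). Both passed without scaling, with spike-ins and with array weights. miR-30a-5p also passed with quantile normalization (0.18, limma adjusted p = 0.0162), and miR-30c-5p without control sample 3 (limma adjusted p = 0.0248). Over the alternatives the adjusted p ran from 0.0162 to 0.998 for miR-30a-5p and from 0.0181 to 0.998 for miR-30c-5p. Of the 7, 4 had a higher and 3 a lower mean with IL-8, beside 96 and 71 of the 167.

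Of 13 miRNAs described to promote fibrosis, 11 were tested, and 0 rose and 0 fell, with a median change of -0.0057; 1 had an unadjusted p under 0.05, miR-382-5p. It changed by 0.15 ± 0.057 (SE, limma adjusted p = 0.159), and miR-145-5p, known from smooth muscle, by -0.083 ± 0.066 (SE, limma adjusted p = 0.492). The share over all tested miRNAs, 12 of 167 (7.19%), amounts to fewer than 1 call in a list of 7 or 11. All changes are relative to the 75th percentile of an array.

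The NF-κB and inflammation list was read because NF-κB is a known repressor of miR-29 in myoblasts. Of 11 such miRNAs on the array 6 were tested, 0 rose and 1 fell, with a median change of -0.11. The others, miR-146a-5p, miR-146b-5p, miR-147, miR-223-3p and miR-9a-5p, were not well above background on any array. The listed miR-155-5p was not on the array. Activity of NF-κB was not measured. The 1 that fell was miR-132-3p, known to be induced by CREB and by inflammatory signals, by 0.36 ± 0.067 on the log2 scale (SE, limma adjusted p = 0.0220). It no longer passed in 9 of 25 alternatives, including without control sample 2 (adjusted p = 0.0564) and without IL-8 samples 1, 2 and 3 in turn (0.0691, 0.132 and 0.101), all by limma, within a range of 0.00112 to 0.812. Among these 9 were also no scaling, with a change of -0.13, and spike-ins, with -0.17 (limma adjusted p = 0.314 and 0.162). miR-222-3p, known to restrain myoblast differentiation, changed by -0.16 ± 0.066 (SE, limma adjusted p = 0.181).

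Of 12 miRNAs of myoblast differentiation on the array 6 were tested, 1 rose and 0 fell, with a median change of -0.043. Of these 6, 2 had a higher and 4 a lower mean with IL-8, beside 96 and 71 of the 167. On this list, miR-1-3p, miR-133a-3p, miR-133b-3p and miR-206-3p were not well above background on any array. The 1 that rose was miR-181a-5p, known to lower Hox-A11 in differentiating myoblasts, by 0.26 ± 0.055 (SE, limma adjusted p = 0.0320). It no longer passed in 10 of 25 alternatives, including each sample left out except control sample 3 (limma adjusted p from 0.0596 to 0.163), within a range of 0.00112 to 0.998. miR-26a-5p, known to promote differentiation, changed by 0.13 ± 0.058 (SE, limma adjusted p = 0.251). The counts of both lists stand beside 12 of 167 (7.19%) over all tested miRNAs.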

How the data were processed

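miRNA was measured in 3 control and 3 IL-8 samples, grouped by their titles; the growth protocol describes IL-8 for all 6, while titles, agent labels and design text leave 3 untreated. The deposited values are spot intensity on a linear scale, background-subtracted and not normalized between arrays per the file headers, made with Agilent Feature Extraction 10.10.1.1, per the submitters' processing notes. The deposited table of values equalled the software's total probe signal for 90570 of 90570 values (relative tolerance 0.0001); its column medians were -0.529, -1.35 and -1.17 in control and 0.307, -0.802 and -1.18 in IL-8 arrays, so it was linear, uncentred and unscaled.

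From each array's 15095 spots, the 14380 of 1730 rat miRNA probes were used. Spots of a probe were averaged without outlier spots, divided by the array's 75th percentile over probes well above background on all arrays (by more than 50% of spots), floored at a log2 level of -5.45 and put on the log2 scale here; 2 tested miRNAs, no member, touched the floor. Testing required a probe well above background in every sample of a group, and such probes were averaged on the log2 scale per miRNA; 552 miRNAs were left out. There were 154 to 180 miRNAs well above background per array, and arrays correlated at r = 0.992 to 0.999. The number of arrays limits the precision.

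Groups were compared with limma 3.58.1 (lmFit, eBayes) in R 4.3.3, with the data.table package (1.17.8), Benjamini-Hochberg adjustment over the 167 tested miRNAs and a threshold of 0.05. Within-array differences of members were tested by exact two-sided permutation, adjusted over 3 pairs. The scripts were checked on simulated data. Alternatives were other scalings, normexp background correction with an offset of 50, probe summaries, filters, floors, limma settings, a replicate block and each sample left out; 1 floor was added after seeing the data. Named were all arms of the family, the 3 tested miRNAs most correlated with each member, and up to 4 of each list in order of p, of which the first 2 are given. Members and lists were chosen with earlier results of these data known. Annotation of rn4 was not used here.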

Additional observations from a re-analysis of the deposited data

Results flagged for a closer look

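A signal was seen in a probe outside the tested miRNAs. The 22-base probe of rno-miR-29a-5p was well above background in IL-8 sample 3 only, at 15.2 intensity units (3 of its 5 spots). The same probe read 6.87, 6.86 and 9.64 in control samples and 10.2 and 8.70 in IL-8 samples 1 and 2. The 95th percentile of negative control spots was also highest on the array of IL-8 sample 3, at 11.1 against 7.72 to 9.09 on the others. It was 1 of 84 probe values of the 5p arms, and no test was made.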

How the results depend on the processing

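The change of rno-miR-29b-3p was positive in all 25 alternatives and past the threshold in 2, at 0.45 without scaling and 0.41 with spike-ins. Other filters, floors and eBayes settings, the replicate block and the choice of specific probes left each member's change exactly as reported. The sign of a member could therefore change only in the remaining alternatives. rno-miR-29a-3p changed sign in 5 of 25, to -0.076 when the percentile was taken over all probes, -0.011 with median scaling and -0.017 with array weights, and by leaving out samples (-0.051 to 0.082). rno-miR-29c-3p changed sign in 2, to -0.015 with the percentile over all probes and within its leave-out range of -0.0065 to 0.13; that of rno-miR-29b-3p was 0.065 to 0.33. The count of 12 calls was 0 with the percentile over all probes (9 at unadjusted p under 0.05 by limma) and 0 without a filter (38 of 719), 52 without scaling, 51 with spike-ins, 24 with normexp (1 higher, 23 lower), 28 with array weights and 7 with a higher floor chosen after seeing the data. It was 1 to 30 with samples left out, with 3 without control sample 2, 30 without control sample 3 and 5, 1 and 4 without IL-8 samples 1, 2 and 3. The higher share of the calls moved with scaling: 6 of 12 were higher as reported, 4 of 14 with median scaling, 49 of 51 with spike-ins and 52 of 52 without scaling. The median over all tested miRNAs was 0.25 without scaling and 0.21 with spike-ins. Among list miRNAs, miR-382-5p reversed with normexp (-0.024), the cause of which was not tested. The shift common to all miRNAs gave the opposite sign to miR-145-5p without scaling (0.15) and with spike-ins (0.11), and to miR-222-3p likewise (0.071 and 0.030). Whether the replicate numbers pair the samples was not settled by these values. Deviations of same-numbered samples from their group means correlated at r = 0.242, 0.324 and 0.0787, and 3 of 6 samples correlated best with the sample of their own number. With the replicate block the count was 3, and rno-miR-29a-3p, rno-miR-29b-3p and rno-miR-29c-3p kept changes of 0.021, 0.22 and 0.082 with limma adjusted p of 0.831, 0.153 and 0.369. In the same order, their SE was 0.050, 0.074 and 0.051 with the block, against 0.088, 0.13 and 0.090 without it. Their unadjusted limma p with the block was 0.697, 0.0356 and 0.172. Within-array differences kept their sign in all 8 alternatives each, over 0.12 to 0.28 for miR-29b-3p minus miR-29a-3p, 0.045 to 0.082 for miR-29c-3p minus miR-29a-3p and -0.20 to -0.071 for miR-29c-3p minus miR-29b-3p. Those alternatives were probe choices and samples left out, without quantile normalization or normexp. With 3 arrays a group, no exact test of a pair can reach 0.05. Probes specific to 1 member were all probes, so that alternative equalled the reported values and was not run for the count.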
